A study of Mytilus galloprovincialis with 16 samples.

Results

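Genes of the egg and the germ line, 3 in number, were followed through the female reproductive cycle of the mussel Mytilus galloprovincialis: AJ625872, annotated as vitelline envelope zona pellucida domain 7, AJ625914, annotated as vitelline envelope zona pellucida domain 9, and AJ623653, annotated as the p-granule associated protein pan-1. They are 3 of the 1920 probes of a mussel cDNA array. The study listed them by EMBL identifier among the transcripts it took as changed in the female mantle, and the listed changes of stages 2, 3 and 4 against stage 1 tied each of them to 1 clone on the array (largest difference 0.00171 on the log2 scale, against 0.0449 or more for the next clone). Because these stage changes chose the genes, their changes between stages are given below as a description with no test.

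The mantle of a mussel holds the gonad, and its RNA is a mixture of germ cells and somatic tissue. Mussels were collected in the Bizerta Lagoon at an early stage (stage 1, November 2007), in development (stage 2, January 2008), ripe (stage 3, February 2008) and at spawning (stage 4, March 2008), so that stage and month of collection cannot be told apart. RNA of single females was labelled with Cy3 or Cy5 and hybridized in pairs on 16 arrays, 4 arrays for each of 4 comparisons: stage 2 against 1, stage 3 against 2, stage 4 against 3 and stage 4 against 1, with the later stage in Cy5 on 2 of each 4. Stage 3 was never put beside stage 1, and the labels do not say whether one animal served on more than 1 array. One array, replicate 4 of stage 3 against 2, carries stage 3 in its title and stage 4 in another label. It was used as stage 3, and the counts at stage 3 against 2 are also given without it. On replicate 3 of that comparison, a label of the stage 2 animal gives January 2007 and another January 2008.

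Zona pellucida (ZP) domain proteins polymerize into the extracellular coat of the egg, called the vitelline envelope in molluscs. They are made by the growing oocyte, and the coat is where sperm first bind. P granules are the ribonucleoprotein granules of the germ line described in Caenorhabditis elegans, where pan-1 encodes a leucine-rich repeat protein associated with them and needed in the germ line. In bulk mantle RNA, fewer oocytes and less of a transcript per oocyte cannot be told apart.

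Each of the 3 probes exceeded the 95th percentile of the array's empty spots in all 8 channels of every stage, on arrays where 44.5% to 92.4% of probe spots did so. Some channels were dim all the same. The lowest intensities less background were 29.5 for AJ625872 and 38.5 for pan-1, both at stage 2. For AJ625914 the lowest was 50, at stage 1, where the empty spots reached 36.3. The background correction added an offset of 50, so ratios from such channels depend on it. Values are log2 ratios of the later over the earlier stage, background corrected and loess normalized, as the mean of the 2 spots of a probe.

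AJ625872, the ZP domain 7 gene, was lower at stage 2 than at stage 1 on every array. The log2 ratios of replicates 1 to 4 were -0.85, -2.34, -0.89 and -1.58, a mean of -1.41 ± 0.70 (SD, n = 4) or 2.66-fold lower. The more negative values, of replicates 2 and 4, came from the 2 arrays with stage 2 in Cy5. From stage 2 to the ripe stage 3 the ratios were 1.77, 1.44, 2.20 and 1.28, with a mean of 1.67 ± 0.41 (SD, n = 4), 3.19-fold higher and positive on every array. Between the ripe and spawning stages the values lay close to 0, at 0.10, -0.029, 0.58 and 0.29, 3 higher and 1 lower, with a mean of 0.24 ± 0.27 (SD, n = 4). Set directly against stage 1, stage 4 was lower on every array, with ratios of -2.31, -1.25, -0.71 and -2.25 and a mean of -1.63 ± 0.78 (SD, n = 4), 3.09-fold lower. The 2 spots of this probe lay far apart on 2 arrays, by 2.16 on replicate 4 of stage 4 against 1 and by 1.23 on replicate 4 of stage 2 against 1.

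AJ625914, the ZP domain 9 gene, was also higher at stage 3 than at stage 2, and was the only one of the 3 that was higher again at spawning on every array. At stage 2 against 1 its ratios were -0.85, -0.047, -0.46 and -0.094, all below 0 but 2 of them nearly at it, with a mean of -0.36 ± 0.38 (SD, n = 4). At stage 3 against 2 they were 0.74, 1.57, 0.86 and 1.18, a mean of 1.09 ± 0.37 (SD, n = 4) or 2.12-fold higher. At stage 4 against 3 they were 1.66, 0.81, 1.97 and 1.41, a mean of 1.46 ± 0.49 (SD, n = 4) or 2.76-fold higher. Both steps of this gene were thus positive on all of their arrays. The direct comparison of stage 4 with stage 1 gave no such difference: the ratios were -0.051, -0.031, 0.41 and 0.046, 2 lower and 2 higher, with a mean of 0.094 ± 0.22 (SD, n = 4). On replicate 1 of that comparison the 2 spots differed by 1.61.

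AJ623653, the pan-1 gene, had the largest change of the 3 in 3 of the 4 comparisons. It was lower at stage 2 than at stage 1, with ratios of -2.45, -1.78, -1.75 and -0.86 and a mean of -1.71 ± 0.65 (SD, n = 4), 3.27-fold lower. It was higher at stage 3 than at stage 2, at 2.31, 2.05, 2.50 and 1.76, with a mean of 2.16 ± 0.32 (SD, n = 4), 4.46-fold higher. At spawning it was below the ripe stage on every array, unlike both envelope genes. The stage 4 against 3 ratios were -0.93, -0.58, -0.41 and -0.31, a mean of -0.56 ± 0.27 (SD, n = 4) or 1.47-fold lower. Stage 4 against 1 gave -3.18, -0.75, -1.11 and -3.19, a mean of -2.06 ± 1.31 (SD, n = 4) or 4.16-fold lower. These 4 values fell into pairs by dye: the arrays with stage 4 in Cy5 averaged -3.19 and those with stage 4 in Cy3 averaged -0.93. AJ625872 split the same way on the same arrays, at -2.28 and -0.98. An SD this large was passed by few probes, being at the 97.5th percentile of the 1920 probes for that comparison, where the median SD was 0.33.

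**Figure D1:**
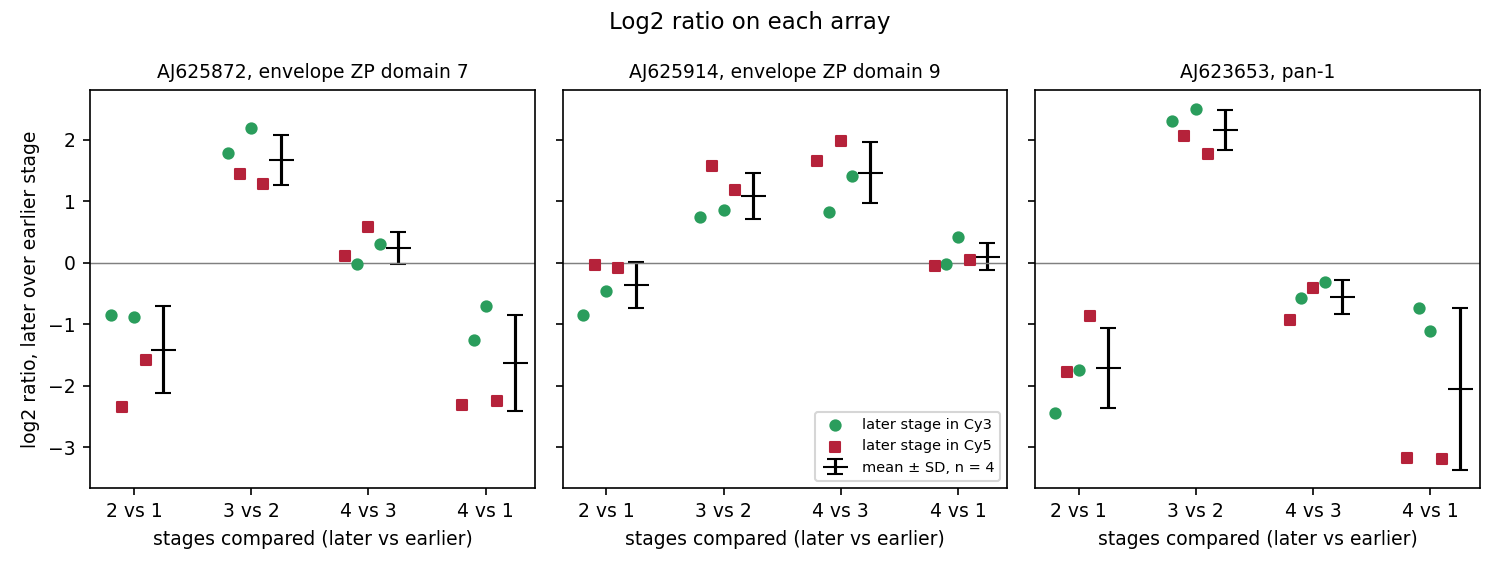
Log2 ratio of the later over the earlier stage (vertical axis) on each of the 16 arrays for the 3 genes, grouped by the stages compared (horizontal axis), replicates 1 to 4 from left to right within a group, with green circles for arrays that carry the later stage in Cy3, red squares for the later stage in Cy5, and a black bar for the mean ± SD of 4 arrays. All 3 genes lie below 0 at stage 2 against 1 and above 0 at stage 3 against 2 on every array, and at stage 4 against 1 the pan-1 values split by dye, near -3.19 and -0.93.

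On the arrays the 3 genes shared a lower value at stage 2 than at stage 1 and a higher value at stage 3 than at stage 2. For AJ625914 the first of these was within its spread (-0.36 ± 0.38, SD, n = 4) and turned to 0.056 with median centring in place of loess. All 3 were lower on all 4 arrays of stage 2 against 1 and higher on all 4 arrays of stage 3 against 2, as were 163 of the 1920 probes (8.49%). Taken singly, 20.4% of probes were lower on all 4 arrays of the first comparison and 24.9% were higher on all 4 of the second. Since these changes chose the genes, nothing is read from the count. Without replicate 4 of stage 3 against 2, whose labels give 2 stages, the same held for all 3 genes and for 185 probes (9.64%), and 30% of probes were higher on the 3 arrays left in that comparison. At stage 4 against 3, AJ625914 was among the 15.7% of probes higher on all 4 arrays and AJ623653 among the 16.1% lower on all 4. At stage 4 against 1, AJ625872 and AJ623653 were among the 22.5% lower on all 4 arrays.

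The 2 envelope genes did not move as a pair. Taken as a difference within each array, AJ625872 minus AJ625914 was -1.22 ± 0.31 (SD, n = 4) at stage 4 against 3 and -1.72 ± 0.64 at stage 4 against 1, negative on all 4 arrays of each. At the earlier steps the difference was -1.05 ± 1.04 at stage 2 against 1 and 0.58 ± 0.71 at stage 3 against 2, and its sign was not the same on every array. AJ625872 lay nearer to pan-1 than to the other envelope gene. The root mean square (RMS) difference of their log2 ratios over the 16 arrays was 0.79, which made each the 9th nearest of 1919 other clones to the other. Between the 2 envelope genes the RMS difference was 1.37, with AJ625914 593rd from AJ625872 and AJ625872 1737th from AJ625914. Between AJ625914 and pan-1 it was 1.84, with pan-1 1871st from AJ625914 and AJ625914 960th from pan-1. Stage changes on these arrays chose the genes, so nothing is read from these positions. The deviations of the arrays from their comparison means had a Pearson r of 0.53 between AJ625872 and pan-1, 0.21 between AJ625914 and pan-1 and -0.11 between the envelope genes, over 16 arrays that the genes share, so that any error of an array enters both.

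Levels in the single channels, normalized so that the average intensities of the arrays have the same distribution, gave a second view of the stages within each probe. Over the 8 channels of a stage, the median log2 level of AJ625872 was 8.50 at stage 1 (7.46 to 9.35), 6.89 at stage 2 (6.23 to 7.73), 8.81 at stage 3 (8.39 to 9.37) and 8.18 at stage 4 (6.84 to 9.29). Stage 2 was the lowest of this gene and did not overlap stage 3, whereas the ranges of stages 1, 3 and 4 overlapped. The median level of pan-1 was 8.57 at stage 1 (7.69 to 10.09), 6.59 at stage 2 (6.20 to 6.86), 8.62 at stage 3 (8.31 to 8.86) and 7.68 at stage 4 (6.26 to 8.45). Stage 2 of pan-1 lay below every channel of stages 1 and 3 and overlapped stage 4. AJ625914 had its lowest median at stage 1, 8.20 (7.76 to 9.14), then 8.67 at stage 2 (7.88 to 11.01), 10.98 at stage 3 (10.40 to 12.19) and 10.51 at stage 4 (7.70 to 12.51). In this gene stage 3 lay above every channel of stage 1, and the widest ranges were those of stages 2 and 4. Its medians do not follow the direct ratios, in which stage 2 was below stage 1 and stage 4 above stage 3, since each pools 2 sets of arrays with different levels. Stage changes on these arrays chose the genes, and the share of all probes with ranges apart in this way is not given here. Nothing is read from the lack of overlap between stages.

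Those wide ranges separated by the comparison an array belonged to. For stage 4 of AJ625914, the 4 channels on arrays against stage 3 had a log2 level of 12.18 ± 0.31 (SD, n = 4, 11.83 to 12.51), and the 4 channels on arrays against stage 1 had 8.34 ± 0.62 (7.70 to 9.18). For stage 2 of the same gene, the level was 7.93 ± 0.046 on arrays against stage 1 and 10.23 ± 0.68 on arrays against stage 3. One stage of one gene thus stood at levels several log2 units apart, with no overlap, depending on the stage it was paired with. AJ625872 at stage 4 split the same way, 8.99 ± 0.24 beside stage 3 and 7.23 ± 0.33 beside stage 1, again with no overlap. The levels of pan-1 at stage 4 were 8.04 ± 0.39 beside stage 3 (7.69 to 8.45) and 7.11 ± 0.67 beside stage 1 (6.26 to 7.67), nearly touching, and its stage 2 levels overlapped, at 6.72 ± 0.15 beside stage 1 and 6.53 ± 0.27 beside stage 3. Animals, hybridization and comparison cannot be told apart in these levels. The share of all probes that split by comparison in this way is not given here, so the split is not read as particular to these genes.

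**Figure D2:**
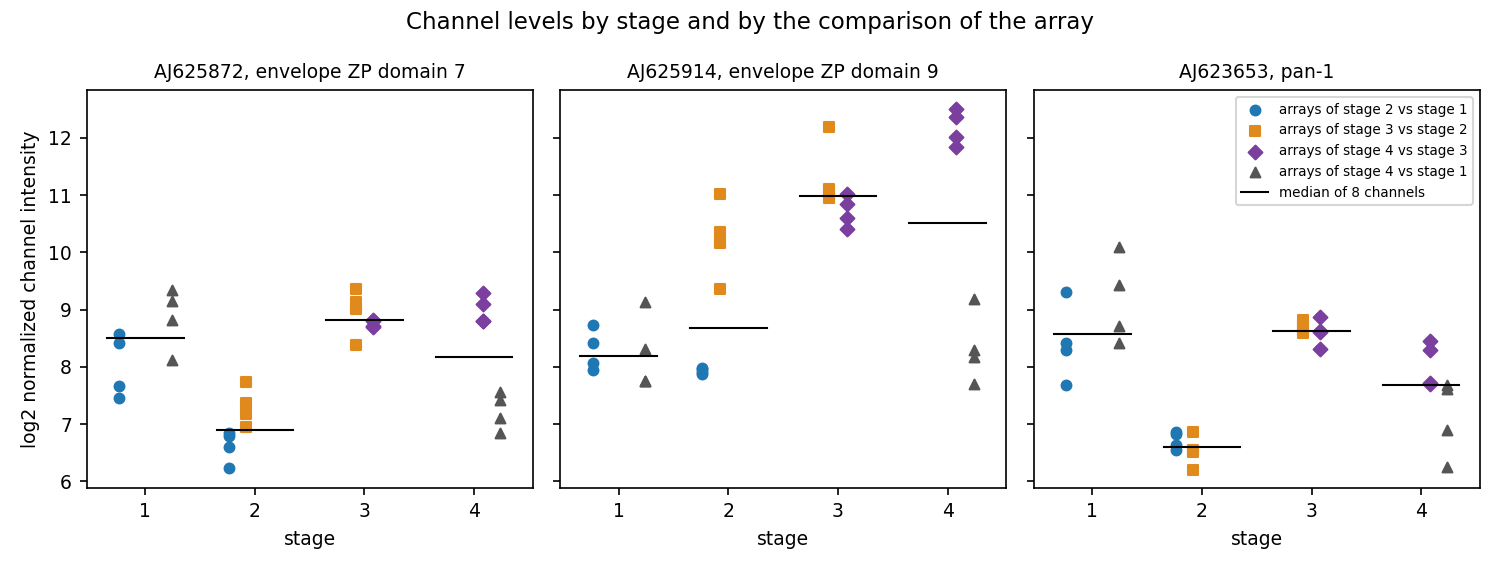
Log2 normalized intensity of each channel (vertical axis) by stage (horizontal axis) for the 3 genes, with the colour and shape of a point giving the comparison of its array and a black line the median of the 8 channels of a stage. For AJ625914, stage 4 lies near 12.18 on arrays against stage 3 and near 8.34 on arrays against stage 1, while stage 2 of pan-1 lies between 6.20 and 6.86 on both sets of arrays.

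The loop of comparisons gave a check that does not rest on the values that chose the genes. If the 4 comparisons measured the same stages, the 3 steps from stage 1 to stage 4 would add up to the direct change of stage 4 against 1. The gap between them, here called the loop mismatch, was orthogonal to the stage coefficients that chose the genes, though the study selected its list on statistics that also use the spread between arrays. For AJ625872 the steps summed to 0.50 against a direct change of -1.63, a mismatch of 2.12 ± 0.53 (SE, 95% confidence interval 1.00 to 3.25, limma adjusted p = 0.0133). For AJ625914 the steps summed to 2.19 against 0.094, a mismatch of 2.09 ± 0.35 (SE, 1.34 to 2.85, limma adjusted p = 0.00116). Neither envelope gene closed the loop. For pan-1 the steps summed to -0.11 against -2.06, a mismatch of 1.94 ± 0.69 (SE, 0.48 to 3.41) that did not pass the threshold (limma adjusted p = 0.0762).

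Mismatches of this size were found in other probes too. At an adjusted p under 0.05, 149 of the 1920 probes (7.76%) had a mismatch above 0 and 111 (5.78%) one below 0, 13.5% in all, and the 3 genes ranked 47th, 49th and 57th by its size. Of the 368 entries of the study's list that were tied to a clone, 84 had a called mismatch above 0 and 40 one below 0. These are larger shares than those over all probes. The RMS mismatch over all probes was 0.80, against an RMS standard error of 0.36. The 2 calls are therefore not particular to the genes of the egg coat. The call of AJ625872 was lost with plain background subtraction, print-tip loess, the first spot alone, B above 0 as a further condition, and all arrays of replicate number 1 (1.72, limma adjusted p = 0.0925), 3 (1.97, limma adjusted p = 0.0537) or 4 (2.09, limma adjusted p = 0.0719) left out. That of AJ625914 was lost with plain subtraction (adjusted p = 0.099) and median centring (adjusted p = 0.183). For pan-1 it was gained on leaving out replicate 2 or replicate 3 of stage 4 against 1, with a mismatch of 2.38 (limma adjusted p = 0.0179) or 2.26 (limma adjusted p = 0.0401), and with the array of conflicting labels read as stage 4, at 2.09 (limma adjusted p = 0.0385).

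Because of the mismatch, a change read directly and the same change read through the other 3 comparisons differed for every step. Each SE of these readings rests on 1 limma estimate of the spread per gene, shared by all comparisons. The SD of the arrays was not the same in each, as in pan-1, with 0.27 at stage 4 against 3 and 1.31 at stage 4 against 1. For AJ625872, stage 3 against 2 was 1.67 ± 0.26 (SE) directly and -0.45 ± 0.46 through the others. For AJ625914 the same step was 1.09 ± 0.18 directly and -1.01 ± 0.31 through the others, and stage 4 against 3 was 1.46 ± 0.18 directly and -0.63 ± 0.31. For pan-1 stage 3 against 2 was 2.16 ± 0.34 directly and 0.21 ± 0.60 through the others. Among the ratios, the clearly higher value at the ripe stage was thus found only on the arrays that put stages 2 and 3 side by side. In the channel levels, stage 3 on arrays against stage 4 also stood above stage 2 on arrays against stage 1, at 8.76 and 6.62 for AJ625872, 10.71 and 7.93 for AJ625914, and 8.60 and 6.72 for pan-1. These levels come from different sets of arrays, between which 1 stage of a gene could differ widely. Stage 2 of AJ625914 stood at 10.23 on arrays against stage 3, so the gap cannot be read as a stage difference alone. The lower level at stage 2 than at stage 1 had the same sign by both ways in all 3 genes, at -1.41 and -3.54 in AJ625872, -0.36 and -2.46 in AJ625914, and -1.71 and -3.65 in pan-1. The second reading is the first less the mismatch. With a mismatch above 0 and a direct change below 0 the shared sign was therefore fixed, and nothing is read from it.

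**Figure D3:**
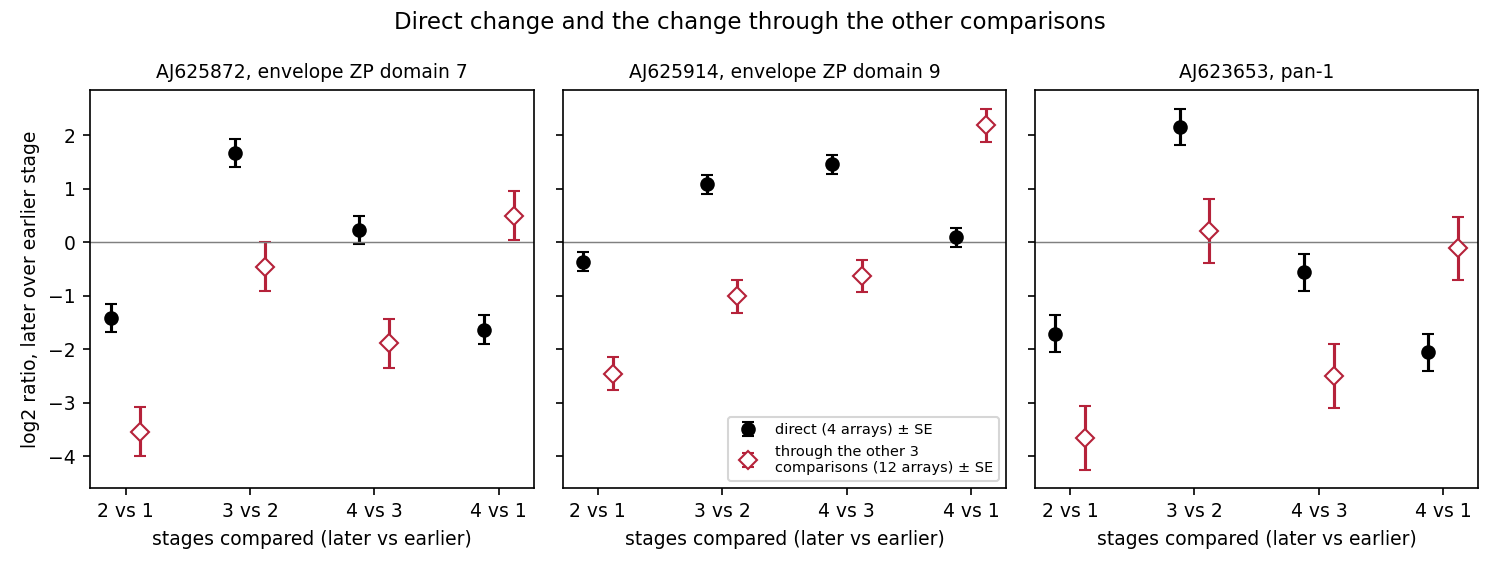
Log2 ratio of the later over the earlier stage (vertical axis) for each pair of stages (horizontal axis), read from its own 4 arrays (black circles, ± SE) and through the 12 arrays of the other 3 comparisons (open diamonds, ± SE). The 2 readings of a step differ by the loop mismatch of the gene, 2.12, 2.09 and 1.94, and for stage 3 against 2 of both envelope genes they lie on opposite sides of 0.

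When all 16 arrays were fitted together by least squares, the result was an average over both ways. The fitted changes against stage 1 were -1.95 ± 0.32 (SE), -0.80 ± 0.37 and -1.10 ± 0.32 at stages 2, 3 and 4 for AJ625872. For AJ625914 they were -0.89 ± 0.27, -0.32 ± 0.32 and 0.62 ± 0.27, and for pan-1 -2.20 ± 0.36, -0.53 ± 0.42 and -1.57 ± 0.36. The fit kept stage 2 as the lowest stage in all 3 genes, and the fitted values at stage 3 lie below stage 1 although no array compared the 2. For AJ625914 that value was within about 1 SE of 0 and turned to 0.10 with print-tip loess and 0.19 with median centring.

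Dye swaps gave a further check independent of the choice of genes. The effect of carrying the later stage in Cy5, with the comparison held fixed, was -0.35 ± 0.10 (SE) for AJ625872 (limma adjusted p = 0.0995), 0.21 ± 0.073 for AJ625914 (limma adjusted p = 0.162) and -0.28 ± 0.16 for pan-1 (limma adjusted p = 0.395). None passed the threshold over all probes, at which 22 of the 1920 (1.15%) did, while both envelope genes were under an unadjusted p of 0.05. AJ625914 was called with median centring (0.56, limma adjusted p = 4.9e-05) and with array weights (0.28, limma adjusted p = 0.0494). In each comparison 2 arrays carry either dye, so that a constant dye effect cancels in the means above. At stage 4 against 1 the pan-1 arrays with the later stage in Cy5 had the lower values. The direction was the same at stage 3 against 2 (1.906 in Cy5, 2.405 in Cy3) and at stage 4 against 3 (-0.67 and -0.45). It was reversed at stage 2 against 1, where the arrays with the later stage in Cy5 averaged -1.32 and those in Cy3 -2.10.

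The clones whose log2 ratios ran nearest to each gene over the 16 arrays were few that carry a description. Nearest to pan-1 was AJ624753, annotated as juvenile hormone diol kinase, with an RMS difference of 0.32 and means of -1.55, 1.74, -0.59 and -2.23 in the 4 comparisons in the order above. The trypsin-like enzyme AJ624548, a digestive protease, was the third nearest to pan-1 (0.46) and the second nearest to AJ625872 (0.64), with means of -1.47, 1.47, -0.31 and -1.79. Ribosomal proteins were also among the 5 nearest, l23a (AJ626199, 0.63) for pan-1 and s27-like (AJ626374, 0.67) for AJ625872. The clone AJ623384, with no description here, was near both, at 0.43 from pan-1 and 0.69 from AJ625872. For AJ625914 the only described clone among the 5 was AJ625847, metallothionein isoform mt-10b, a metal-binding protein, with an RMS difference of 0.56 and means of -0.84, 1.04, 0.79 and -0.42. Its 4 other nearest clones lay at 0.55 to 0.64, and at stage 4 against 3 all 5 were lower than AJ625914 itself.

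Of the 5 clones nearest to pan-1, 2 have names that end in the same well code as its own clone, and a further such clone was 18th of the 1919. For AJ625872 the nearest clone of all, AJ623588, also shares its code. Each code is carried by 20 clones. Over all probes the nearest clone had the same code in 3.39% of cases, where 0.99% of other clones carry it, and 0.573% of probes had 2 or more such clones among their 5 nearest. The part of the shared code in these likenesses was not tested.

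**Figure D4:**
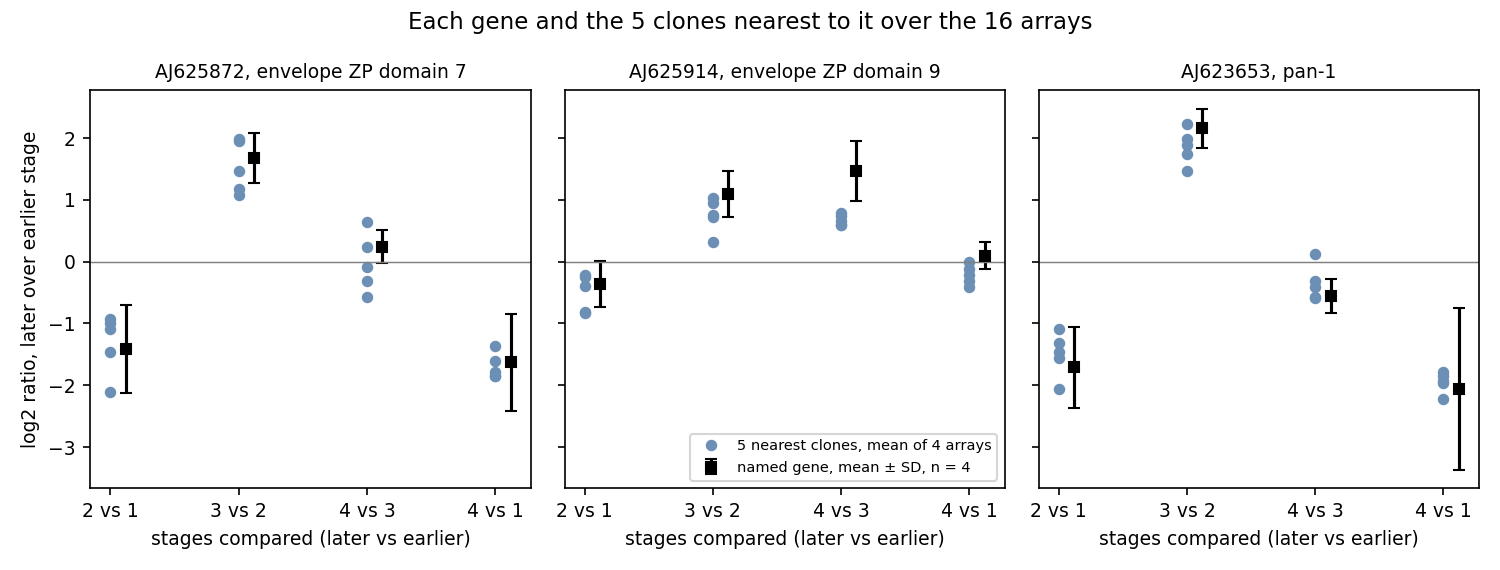
Mean log2 ratio over 4 arrays (vertical axis) in each comparison (horizontal axis) for the 5 clones nearest to each gene by RMS difference over the 16 arrays (blue points) and for the gene itself (black squares, mean ± SD, n = 4). At stage 4 against 3 the 5 clones nearest to AJ625914 lie between 0.59 and 0.79, below its mean of 1.46.

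Of 8 further genes of the egg coat and germ line listed as relatives, 1 could be tied to a clone, the uromodulin precursor AJ625554, which in mammals is a ZP domain protein of the kidney. Like the 3 genes, AJ625554 was tied through the study's list of changed transcripts, so its calls are given as a description. It was higher at stage 3 than at stage 2 (0.59 ± 0.15, SD, n = 4) and below its ripe level at spawning (-0.56 ± 0.11), both called by limma at an adjusted p under 0.05 with log odds B above 0, as were 8.39% of probes upward at the first step and 2.29% downward at the second. Its change from stage 1 to 2 was 0.14 ± 0.14 and was not called, and at stage 4 against 1 it was called higher (0.53 ± 0.090, as were 2.81% of probes). With median centring it was called only at stage 4 against 1, with values of 0.14 at stage 3 against 2 and 0.0010 at stage 4 against 3. The call at stage 3 against 2 was also lost with plain background subtraction (0.64), and that at stage 4 against 1 with print-tip loess (0.31) and the first spot alone (0.39). This relative was thus not among the probes with a low at stage 2 on all arrays, being higher on 3 of the 4 and lower on 1.

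Genes listed as markers of sperm and axonemes, digestive gland, muscle and mantle were read on the same mantle arrays. Chitinases are among the listed digestive gland enzymes, and the paper also reports their transcripts in the female mantle. They need not mark another tissue. A listed gene could be tied to a clone only through the study's list of changed transcripts, so calls among tied genes were favoured in advance. Of the 368 entries tied in all, 163 were higher on all 4 arrays of stage 3 against 2 and 136 lower, against 24.9% and 22.2% of all probes. The shares of all probes below are thus not a like background, and nothing is read from the counts. At stage 3 against 2, all 3 tied genes of 8 listed for sperm and axonemes were called higher (0.57 to 1.61, median 0.80), and 2 of the 3 tied muscle genes of 11 listed were called higher and 1 lower (median 1.24), where 8.39% of all probes were called higher. At other steps 1 sperm gene was called lower at stage 4 against 3, as were 2.29% of all probes, and 1 muscle gene at stage 4 against 1, as were 4.69%. Again at stage 3 against 2, 6 of the 9 tied digestive gland enzymes were called lower, of 14 listed (median -1.98, from -2.99 to 1.47), and 6.41% of all probes were called lower. The trypsin-like enzyme was 1 of 3 called lower at stage 2 against 1, where 4.64% of all probes were. The median of the 9 at that step was 0.92. On all 4 of its arrays 6 of them were higher, as were 18% of all probes, and 3 lower, as were 20.4%. None was called higher. At stage 4 against 3, 1 enzyme was called higher, where 2.97% of all probes were. At stage 4 against 1, 7 of these 9 were called lower (median -2.27), where 4.69% of all probes were. The 1 mantle gene tied of 2 listed, mantle gene 8 (AJ624733), was called higher at stage 2 against 1 (0.72 ± 0.29, SD, n = 4, as were 1.88% of probes). It was called lower at stage 3 against 2 (-1.40 ± 0.15, as were 6.41% of probes) and at stage 4 against 1 (-1.93 ± 0.42, as were 4.69%). Without replicate 4 of stage 3 against 2 the counts of called markers at that step were the same, beside 7.4% of all probes called higher and 5.57% lower. The 6 enzymes called lower at stage 3 against 2 were chitinases, so that at this step the 3 genes were higher where chitinases and the mantle gene were lower. Alpha-amylase (-0.023), endo-beta-glucanase (0.050) and the trypsin-like enzyme (1.47) were not called at this step. At stage 4 against 1, AJ625872 and pan-1 were lower together with the chitinases and the mantle gene. The part of tissue composition in the values above was not tested.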

How the data were processed

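For each spot the authors deposited GenePix intensity values without normalization, as the mean of the foreground and the median of the surrounding background in either dye. A second table that the authors deposited holds log2 ratios made with limma (version not given in the sources used here), as channel 1 over channel 2, which is the later over the earlier stage; its column medians lay between -0.03 and 0.02, and it was matched within 0.005 by normexp (offset 50) and a loess curve through all spots. Each array had 4560 spots, with 3840 for the 1920 probes, 608 left empty and 112 for alignment. The number of arrays limits the precision.

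Here the intensities were background corrected with normexp (offset 50), loess normalized within each array (weight 0 for the empty spots and those for alignment), averaged over the 2 spots of a probe and given a sign so that each ratio reads later over earlier (R 4.3.3, limma 3.58.1). Channel levels were normalized with Aquantile after loess. The genes were tied to clones by 3 least squares stage coefficients on the deposited log2 ratios, within 0.005, as were 368 entries of the study's list in all, 208 of them with a description. Loop mismatch and dye effect were tested over all 16 arrays with lmFit and eBayes and called at a Benjamini-Hochberg adjusted p under 0.05 over 1920 probes. The limma calls quoted for other genes also required B above 0 with a prior share of 0.01. The tests were tried on simulated data. Named were the 3 genes, the 5 clones nearest to each by RMS difference where they carry an identifier and a description, and tied relatives. AJ623588 and AJ623384, which carry no description, were named after their values were seen. The genes and lists were chosen with earlier results of these data known. The labels call the arrays biological replicates of single animals. No array was a copy of another of its comparison, since the variance between 2 arrays was at least 1.39 times the noise between duplicate spots in all 24 pairs, which does not tell separate animals from repeat hybridizations. Alternatives were other background corrections and normalizations, the deposited log2 ratios, a filter on dim probes, single spots, each array or replicate number left out, a replicate block, array weights and the second reading of the conflicting label.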

Additional observations from a re-analysis of the deposited data

Results flagged for a closer look

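The spread of single arrays and channels was checked in 24 groups (the 12 sets of 4 ratios and the 12 sets of 8 channel levels), of which chance marks about 1 in 20 as holding a distant sample. In 1 group, stage 3 of AJ625914, the highest of the 8 channels was far from the others, at a log2 level of 12.19. It belongs to replicate 4 of stage 3 against 2, the array whose labels give both stage 3 and stage 4, and lies within the range of the stage 4 levels on arrays against stage 3 (11.83 to 12.51). The stage 2 channel of that array, at 11.01, was also the highest of its stage, and the log2 ratio of the array, 1.18, lay within those of the other 3 arrays.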

How the results depend on the processing

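The direct changes of AJ625872 and pan-1 moved with the background correction, and those of AJ625914 more with the normalization. Without background correction, AJ625872 had -0.67, 1.18 and -0.82 in the comparisons 2 vs 1, 3 vs 2 and 4 vs 1, pan-1 had -0.87, 1.33 and -0.28 at the first 3 comparisons, and the fitted stage 2 changes were -1.04 (AJ625872) and -1.18 (pan-1). With plain subtraction, AJ625872 had -2.30 at stage 2 against 1 (fitted -2.79), AJ625914 0.71 (3 vs 2) and 0.34 (4 vs 1), and pan-1 -2.39 and 2.70 at the first 2 comparisons, and the loop mismatch of AJ625872 was 1.96 (limma adjusted p = 0.134) and of AJ625914 1.31 (adjusted p = 0.099). With median centring only, AJ625872 had 1.20 (3 vs 2) and 0.79 (4 vs 3), AJ625914 0.056 (2 vs 1), above 0, and 0.98 (4 vs 1, fitted stage 4 change 1.35, loop mismatch 1.48, limma adjusted p = 0.183, and dye effect 0.56, called at adjusted p = 4.9e-05), and pan-1 -0.10 at stage 4 against 3. Print-tip loess gave 0.91 for AJ625914 at stage 4 against 3 and a mismatch of 1.61 for AJ625872 (limma adjusted p = 0.0605), and the first spot alone a mismatch of 2.34 for AJ625872 (adjusted p = 0.0622) and -0.12 for AJ625914 at stage 4 against 1. Over all these alternatives the adjusted p of the mismatch ran from 0.00405 to 0.134 for AJ625872, 0.000146 to 0.183 for AJ625914 and 0.0179 to 0.506 for pan-1. The causes were not tested.

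The probes with a called dye effect numbered 22, and 0 without background correction, 639 with median centring only, 3 with print-tip loess, 1 with either spot alone and 48 with array weights, where AJ625914 was called (0.28, limma adjusted p = 0.0494). With log odds B above 0 as a further condition 111 probes had a called loop mismatch in place of 260, and AJ625872 (2.12) was not among them. With the conflicting array used as stage 4, the mismatch of pan-1 was 2.09 (limma adjusted p = 0.0385). Leaving out 1 array or 1 replicate number at a time gave mismatches of 1.72 to 2.73 for AJ625872 (not called without replicates 1, 3 or 4), 1.92 to 2.31 for AJ625914 and 1.33 to 2.45 for pan-1, with 105 to 318 probes called, and 0 to 43 probes with a called dye effect. Direct changes with 1 array left out kept their sign except AJ625914 at stage 4 against 1 (-0.012 to 0.14).

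Of 16 correlations between the deviations of arrays with the same replicate number (-0.21 to 0.17), 4 were over 0.1. All 4 between stages 3 vs 2 and 4 vs 3 were above 0 (0.095 to 0.17) and all 4 between 2 vs 1 and 3 vs 2 below 0, so the number was not taken as a pairing of all comparisons. With a replicate block, the mismatches stayed at 2.12, 2.09 and 1.94 (limma adjusted p = 0.00731, 0.00301 and 0.0764), 239 probes had a called mismatch and 3 a called dye effect. Of the 5 nearest clones, at least 1 for each envelope gene and 2 for pan-1 were shared with each of 9 other settings. A slide or scan date as a block was not run, since the files used here give neither. The filter on dim probes kept all 3 genes among 1744 probes. With 4 arrays a comparison, single animals, month of collection and stage cannot be told apart.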
